A study of Chlamydomonas reinhardtii with 12 samples.

Results

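The genes described here are the glutamine synthetases GLN1 (Cre02.g113200), GLN2 (Cre12.g530650) and GLN3 (Cre12.g530600), the NADH-dependent glutamate synthase GSN1 (Cre13.g592200) and the ferredoxin-dependent glutamate synthase GSF1 (Cre12.g514050) of the green alga Chlamydomonas reinhardtii. They were chosen by identifier and make up 5 of the 17744 identifiers counted in each of 12 libraries. All 5 had a row in the count table. The table and the RefSeq gene table used here give no symbols, so the pairing of symbols with identifiers could not be checked in the data.

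Glutamine synthetase joins ammonium to glutamate and makes glutamine, using ATP. Glutamate synthase, also called GOGAT, then moves the amide nitrogen of glutamine onto 2-oxoglutarate and returns glutamate, with electrons from NADH or from reduced ferredoxin. The cycle is the main entry of ammonium into amino acids in algae and plants, and in Chlamydomonas it has cytosolic and plastid glutamine synthetases. TAP medium, in which these cultures grew, supplies nitrogen as ammonium and carbon as acetate, and in darkness ferredoxin is not reduced by photosynthesis.

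All cultures were vegetative liquid cultures kept for 4 weeks in darkness at 25 °C. The knockout libraries, labelled PDSKO, came from transformants of line CC-3403 in which phytoene desaturase, an early enzyme of carotenoid synthesis, was targeted with Cas9 ribonucleoprotein. They were grown in TAP medium without added arginine, and the harvested cells were sorted by flow cytometry to remove transformants that carried the plasmid but no knockout, and revertants. PDSKO 1 to 4 were 4 libraries of line E10, PDSKO 5 was line A2 and PDSKO 6 was line D2. The 6 WT libraries came from cultures of the parental line CC-3403, for which no sorting is described, grown in TAP medium with 10 µg/mL arginine. Arginine, sorting and the plasmid therefore went with genotype and cannot be told apart from it. By their titles the libraries fell into a first title set, E10 with WT 1 to 3, and a second, A2 and D2 with WT 4 to 6, and genotypes were compared within each set. The strain number in the titles of WT 1 to 3 is not that of the labelled line. The labels call the parental samples independent, but nothing says whether the E10 libraries came from separate cultures, and a p-value therefore speaks of the spread of these libraries alone, which may be technical.

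Counts came from transcript 3′ ends, so a level is given in counts per 1000000 counts of a library (CPM) without division by gene length. Library totals ran from 6279 to 40429 counts in E10, from 14204824 to 35992976 in WT 1 to 3, and from 1393032 to 11768160 in WT 4 to 6. The totals of A2 and D2 were 475103 and 36062. One count thus stood for 24.7 to 159 CPM in E10, 2.1 CPM in A2 and 27.7 CPM in D2. In A2 the identifier Cre07.g323800 took 432689 CPM of the total, against 43813 CPM in D2 and 21511 to 53282 CPM in WT 4 to 6. Phytoene desaturase (PDS1) had 0, 2, 0 and 2 counts in E10 and 0 in A2 and in D2, against 3394, 2398 and 662 counts in WT 1 to 3 and 882, 58 and 66 in WT 4 to 6. The pooled E10 level of PDS1 was 0.654 times the WT 1 to 3 mean, with a 95% Poisson interval of 0.178 to 1.67. In A2 and D2 PDS1 passed as lower, as did 602 of 8042 identifiers. There edgeR's quasi-likelihood test gave a log2 fold change of -10.4 ± 2.72 (SE), on 0 counts, with an adjusted p of 0.0279. The Poisson interval of A2 ended at 7.76 CPM, below the 74.9, 21.6 and 47.4 CPM in WT 4 to 6. That of D2 ended at 102 CPM, above them, so D2 alone does not show a loss. A 3′ count does not show whether the coding sequence was cut, since the edited position is not stated in the labels.

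A difference between the title sets touches GLN2. Of the 5 genes only GLN2 has more than 1 transcript (2) in the RefSeq annotation. The 1531 identifiers with at least 2 RefSeq transcripts took 0.0159% to 0.109% of the counts in E10 and 0.0514% to 0.0719% in WT 1 to 3, against 7.04% in A2, 11.2% in D2 and 8.70% to 8.79% in WT 4 to 6. Reads that mapped to several places were discarded before deposit, per the labels' protocols. A genotype comparison within a title set is made between libraries that share this property, while a comparison across sets is not.

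**Figure D1:**
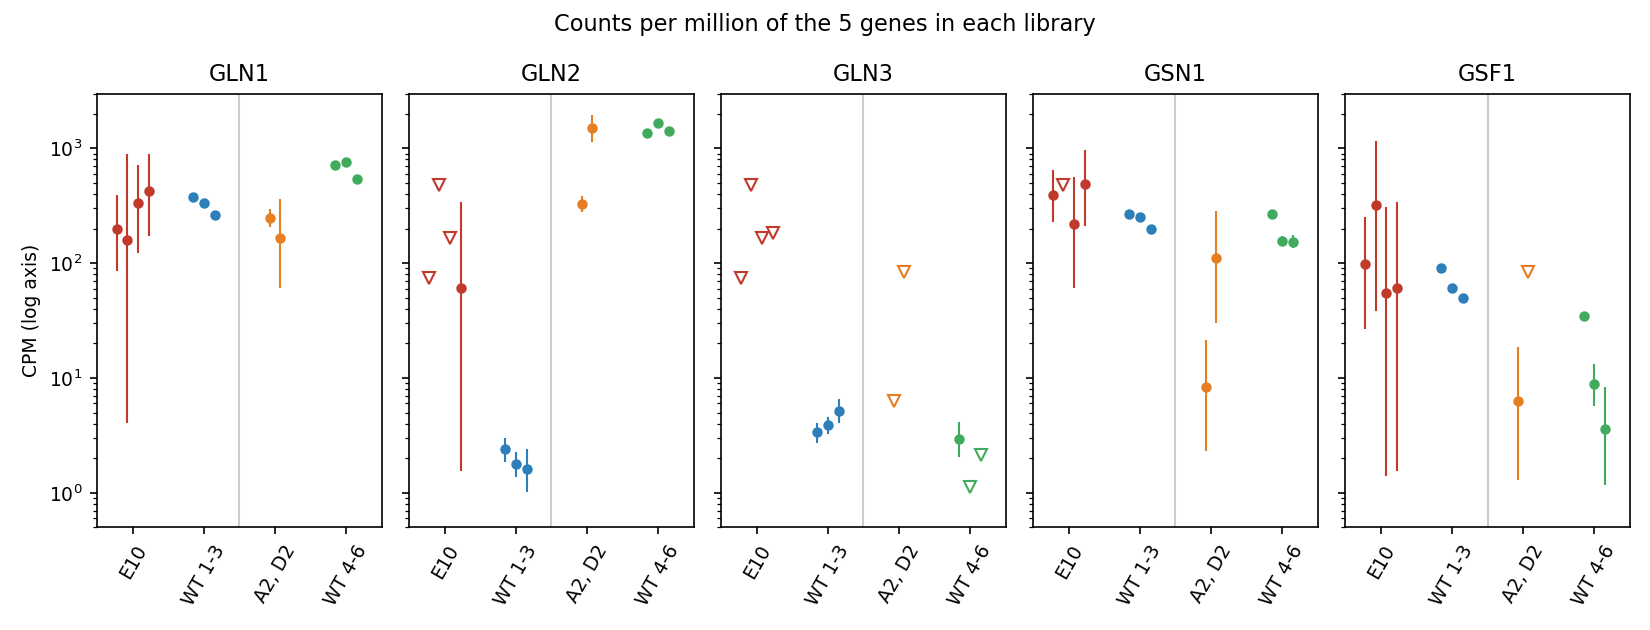
Level of each gene in CPM (log axis) in each library of E10, WT 1 to 3, A2 with D2 (A2 left) and WT 4 to 6, with the title sets parted by a grey line. Filled points carry exact Poisson 95% intervals, and open triangles mark libraries with 0 counts, drawn at the level of 3 counts. GLN2 sits near 2 CPM in WT 1 to 3 and between 1365 and 1664 CPM in WT 4 to 6, and within the second title set A2 has the lowest level of GSN1.

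GLN1, which is described as the cytosolic enzyme, was counted in all 12 libraries. Its level was 198, 159, 331 and 429 CPM in E10, on 8, 1, 6 and 7 counts, against 377, 336 and 263 CPM in WT 1 to 3. The E10 values spanned the WT values. The E10 mean was 279 ± 124 CPM (SD, n = 4) and the WT mean 325 ± 57.8 CPM (SD, n = 3), and edgeR's quasi-likelihood test gave a log2 fold change of -0.10 ± 0.44 (SE) with an adjusted p of 0.994. Leaving out 1 E10 library moved it to -1.63 without PDSKO 4, -1.48 without PDSKO 3, -1.18 without PDSKO 1 and -1.08 without PDSKO 2, leaving out WT 3 to -0.38, and dropping the low-count filter to -1.50. None of these passed, with adjusted p values from 0.287 to 0.999 over all alternatives. The low-count filter was rerun in each fit that used it, with a cutoff that follows the median library total. Leaving out any 1 E10 library raises that median and so lowers the cutoff. A shift due to a single library and a shift due to the filter were therefore not told apart. The pooled E10 counts gave 0.833 times the WT mean, with a Poisson interval of 0.522 to 1.26 that covers counting error only. In these bulk samples fewer cells of a kind and less RNA per cell cannot be told apart.

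GLN1 was lower in A2 and D2 than in every matching parental library. It reached 248 CPM in A2 on 118 counts and 166 CPM in D2 on 6 counts, against 714, 757 and 538 CPM in WT 4 to 6. The Poisson intervals of 206 to 297 CPM in A2 and 61.1 to 362 CPM in D2 also ended below the lowest WT library. Of all identifiers tested in this comparison 65.8% were lower, with a median log2 fold change of -0.92. The share of them that lay below every WT library was not counted. By lowest log2 fold change GLN1 ranked 2850th of 8042 identifiers tested. The difference did not pass the test, as edgeR put the log2 fold change at -1.88 ± 0.87 (SE) and the adjusted p at 0.135. With D2 as the lone knockout library the log2 value was -3.04, and with A2 alone it was -1.47. A lone library shows no spread of its own, and its fit assumes that it varies like the WT libraries. Without WT 5 the log2 value was -1.26 at an edgeR adjusted p of 0.605.

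GLN2, described as the plastid enzyme, was the highest of the 5 genes in the second title set. It stood at 330 CPM in A2 on 157 counts and at 1497 CPM in D2 on 54 counts, against 1365, 1664 and 1413 CPM in WT 4 to 6. D2 lay inside the range of the parental libraries, and A2, with a Poisson interval of 281 to 386 CPM, lay below all of them. The A2 interval did not reach that of D2, 1125 to 1954 CPM, so the 2 lines differed from each other by more than counting error. Over both lines edgeR gave a log2 fold change of -1.54 ± 0.75 (SE) at an adjusted p of 0.155. With A2 alone against the WT libraries it was -2.22, and with D2 alone it was -1.04. Without WT 5 it was -0.84 at an adjusted p of 0.713. In this comparison 10.8% of identifiers with at least 2 RefSeq transcripts and 10.9% of those with 1 passed, and the median log2 fold change was -0.92 in both.

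In the first title set the parental level of GLN2 lay below the detection limit of the knockout libraries, as 3 counts over the pooled E10 total equal 37.0 CPM. E10 gave 0, 0, 0 and 1 counts, against 72, 64 and 23 counts in WT 1 to 3, which are 2.39, 1.78 and 1.62 CPM. The single E10 count corresponded to 12.3 CPM over the pooled E10 total, with a Poisson interval of 0.312 to 68.7 CPM. Its ratio to the WT mean was 6.38 with an interval of 0.162 to 35.6, so no difference of genotype was detectable at this depth.

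GLN3, the neighbour of GLN2 on chromosome 12 in the RefSeq gene order, had the lowest counts of the 3 glutamine synthetases in the second title set. It had 0 counts in all 6 knockout libraries, against 3.36, 3.89 and 5.21 CPM in WT 1 to 3 on 101, 140 and 74 counts, and 2.97, 0 and 0 CPM in WT 4 to 6 on 35, 0 and 0 counts. A count of 3 over the pooled totals, the limit that 0 counts allow, equals 37.0 CPM in E10 and 5.87 CPM in A2 with D2. Both limits lie above the WT levels, so a loss of GLN3 in the knockouts was not detectable. GLN3 passed the low-count filter in none of the 3 genotype fits.

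GSN1, the NADH-dependent glutamate synthase, was lower in A2 and in D2 than in each matching parental library. A2 had 8.42 CPM and D2 111 CPM, on 4 counts each, against 269, 155 and 154 CPM in WT 4 to 6. Both knockout values were below all 3 parental values, although the Poisson interval of D2, 30.2 to 284 CPM, covered them and that of A2, 2.29 to 21.6 CPM, did not. As for GLN1, the share of all identifiers with such a separation was not counted. By lowest log2 fold change GSN1 ranked 1821st of 8042 identifiers tested. The pooled level of both lines was 15.7 CPM, which is 0.0811 times the WT mean of 193 ± 66.0 CPM (SD, n = 3), with a Poisson interval of 0.0350 to 0.160 for the ratio. Since A2 supplied most of the pooled total, this ratio follows A2. By edgeR the log2 fold change came to -3.01 ± 1.11 (SE), at an adjusted p of 0.076. With A2 as the lone knockout library it was -4.52, and with D2 as the lone one -1.80. It passed without the low-count filter, at -3.29 and an edgeR adjusted p of 0.0494, where more identifiers passed than in the main fit. Without WT 4 it was -2.08 at an adjusted p of 0.367.

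In E10 the level of GSN1 was 396, 0, 221 and 490 CPM, on 16, 0, 4 and 8 counts, against 269, 252 and 197 CPM in WT 1 to 3. The E10 values lay on both sides of the WT range. Pooled over the 4 libraries it was 345 CPM with an interval of 229 to 499 CPM, and 1.44 times the WT mean with an interval of 0.958 to 2.08. By edgeR it had a log2 fold change of 0.55 ± 0.63 (SE) at an adjusted p of 0.994. The cutoff of the low-count filter follows the median library total, here that of PDSKO 1, 40429 counts. GSN1 met it with the help of its E10 levels of 396 and 490 CPM. Its sign turned without the filter (-0.77) and when any 1 E10 library was left out (-0.98 to -0.35). Leaving out an E10 library also lowers the cutoff, and the effects of library and filter were not told apart.

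GSF1, the ferredoxin-dependent glutamate synthase, had few counts in every knockout library. In E10 it had 98.9, 319, 55.2 and 61.2 CPM, on 4, 2, 1 and 1 counts, against 90.8, 60.5 and 50.1 CPM in WT 1 to 3. The pooled E10 level was 98.6 CPM with an interval of 42.6 to 194 CPM, which includes all 3 parental values. A2 had 6.31 CPM on 3 counts and D2 had 0, against 34.3, 8.94 and 3.59 CPM in WT 4 to 6. The A2 value lay within the wide parental range, and 3 counts in D2 would be 83.2 CPM, above that range. For A2 and D2 edgeR gave a log2 fold change of -1.43 ± 1.26 (SE) at an adjusted p of 0.433.

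Across all 5 genes no genotype difference passed within a title set. In E10 against WT 1 to 3 GLN1 and GSN1 were tested and 0 passed, with a background of 0% (0 of 449 identifiers). In that fit 6 identifiers had an unadjusted p under 0.05 and DESeq2 called 1. In the second title set 4 of the 5 genes were tested for A2 and D2 and 0 passed at an adjusted p under 0.05, against a background of 10.9% (874 of 8042). GLN1 and GSN1 had an unadjusted p under 0.05 in that edgeR fit, as did 34.2% of all identifiers (2749 of 8042). DESeq2 called none of the 4. Of the 874 calls 272 were higher and 602 lower, and with RLE size factors 438 were higher and 342 lower. Leaving out WT 4 gave 13 calls, leaving out WT 5 gave 71 and leaving out WT 6 gave 127, and 2486 were made with A2 as the lone knockout library. The median log2 fold change of all identifiers was -0.92 with TMM factors, -0.42 with RLE factors and -0.74 with totals alone. The median of the 4 tested genes was -1.71 with TMM factors. Measured from the median of all identifiers, GLN1 was at -0.96, -0.96 and -0.87, and GSN1 at -2.09, -2.0 and -1.55. GLN2 was at -0.63, -0.51 and 0.11, so its direction relative to all genes turned with totals alone. With Cre07.g323800 left out of the totals, the log2 fold changes were -1.75 for GLN1, -1.20 for GLN2 and -2.72 for GSN1, and none passed.

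When the genotype difference was estimated within both title sets at once over 12 libraries, 0 of 4 tested genes passed, against a background of 0% (0 of 4915, with 996 at an unadjusted p under 0.05 and 400 called by DESeq2). Without PDSKO 1 and without PDSKO 3 that background was 997 and 338 calls. GLN1 had a log2 fold change of -1.06 ± 0.57 (SE) and an edgeR adjusted p of 0.296. It passed without the low-count filter, at -2.11 and an adjusted p of 0.0288, in a fit that called 2030 identifiers. The value for GSN1 was -0.93 ± 0.72 with an adjusted p of 0.466. GLN2 and GSF1 lay at -0.13 ± 0.89 and -0.27 ± 0.68, and both signs turned with RLE factors (0.61 and 0.36) and with DESeq2 (0.94 and 0.37). Whether the genotype difference itself differed between the title sets was also tested, as A2 and D2 over WT 4 to 6 minus E10 over WT 1 to 3. The log2 differences were -2.84 ± 1.92 for GLN2, -1.95 ± 1.40 for GSN1, -0.74 ± 1.46 for GSF1 and -0.33 ± 1.1 for GLN1 (SE), with edgeR adjusted p from 0.457 to 0.999. None of these 4 passed, against a background of 0.0111% (1 of 9044, with 1446 at an unadjusted p under 0.05 and 662 called by DESeq2, and 243 calls without WT 1).

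**Figure D2:**
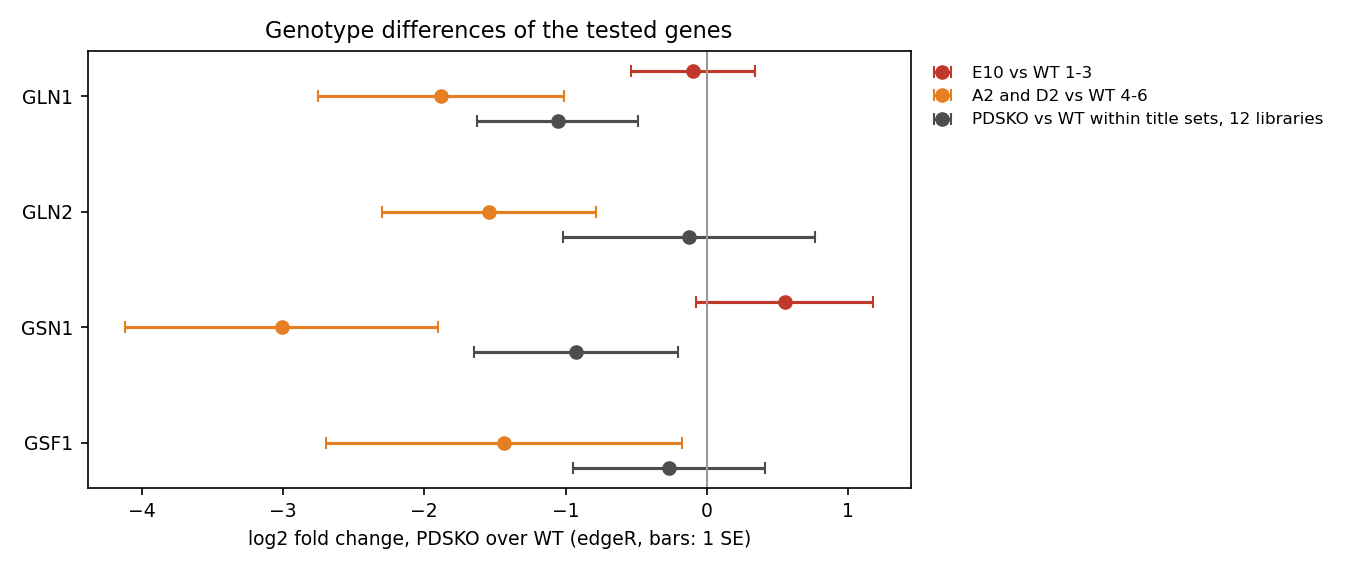
Genotype log2 fold changes, PDSKO over WT, with bars of 1 SE from edgeR, for E10 against WT 1 to 3, A2 and D2 against WT 4 to 6, and both title sets together. GSN1 lies at -3.01 in A2 and D2 and at 0.55 in E10, none of the values passed an adjusted p of 0.05, and GLN2 and GSF1 did not pass the count filter in the E10 comparison.

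The make-up of the counts among the 5 genes does not depend on scaling between libraries. Of 282 such counts in A2, 41.8% were GLN1, 55.7% GLN2, 1.42% GSN1 and 1.06% GSF1. Of 64 in D2, 9.38% were GLN1, 84.4% GLN2 and 6.25% GSN1. In WT 4 to 6 GLN1 held 25.5% to 29.9%, GLN2 57.2% to 67.0%, GSN1 6.01% to 11.3% and GSF1 0.170% to 1.44%. GSN1 in A2, with a Wilson 95% interval of 0.553% to 3.59%, was thus below the share in each parental library. The interval of D2, 2.46% to 15.0%, covered the parental shares. GLN2 per GLN1 count was 1.33 in A2 and 9.0 in D2, against 1.91, 2.2 and 2.62 in WT 4 to 6, so the lines lay on opposite sides of the parental libraries.

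In the first title set the 4 E10 libraries held 28, 3, 11 and 17 counts of the 5 genes, against 7338 to 23549 in WT 1 to 3. The parental make-up was close to even across libraries, with 50.8% to 51.3% GLN1, 36.2% to 38.5% GSN1, 9.24% to 12.2% GSF1 and 0.272% to 0.322% GLN2. Summed over the 5 genes the level was 478 to 1041 CPM in E10 and 517 to 743 CPM in WT 1 to 3. In the second title set the sum was 594 CPM in A2 and 1775 CPM in D2, against 2109 to 2585 CPM in WT 4 to 6.

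**Figure D3:**
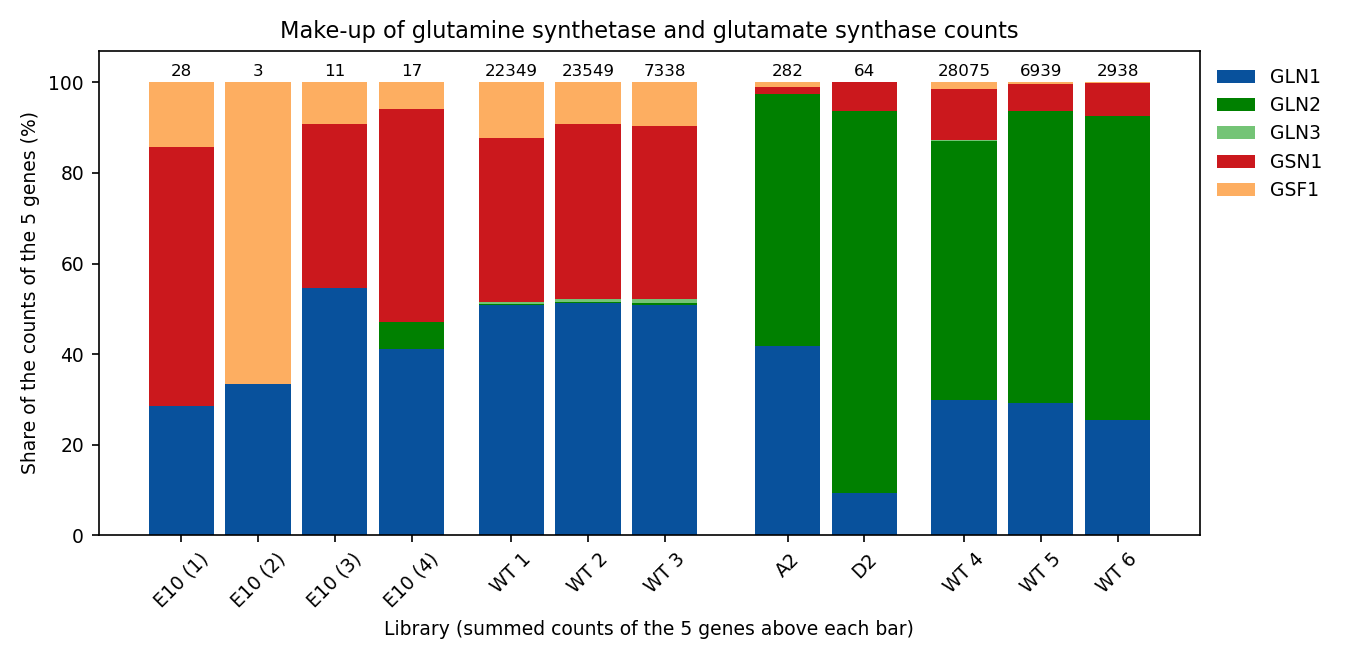
Share of each gene in the summed counts of the 5 genes (percent, stacked bars) for the libraries of E10, WT 1 to 3, A2, D2 and WT 4 to 6, with the summed counts above each bar. GLN2 makes up 57.2% to 67.0% in WT 4 to 6 and 0.272% to 0.322% in WT 1 to 3, and the E10 bars rest on 3 to 28 counts.

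The parental libraries of the 2 title sets differed most in GLN2. Its mean was 1.93 ± 0.409 CPM in WT 1 to 3 and 1481 ± 161 CPM in WT 4 to 6 (SD, n = 3 each), a log2 fold change of -9.96 ± 0.63 (SE) with an edgeR adjusted p of 1.83e-05. It had the 21st smallest p of 13040 identifiers. This was the single call among the 5 genes, all of which were tested, against a background of 11.1% (1451 of 13040, 237 higher and 1214 lower in WT 1 to 3, and 3288 calls without WT 1). Of identifiers with at least 2 RefSeq transcripts, 797 of 855 (93.2%) passed and 796 of them were lower in WT 1 to 3, against 654 of 12185 (5.37%) of those with 1 transcript. Among identifiers at 100 CPM or more in WT 4 to 6, 67 of 72 with at least 2 transcripts were over 100-fold lower in WT 1 to 3, against 5 of 931 with 1 transcript. For GLN2 a difference in abundance and a difference in how reads of such identifiers were counted cannot be told apart here. GLN2 also overlaps its next neighbour Cre12.g530700 in the RefSeq annotation, and that identifier had 2.04 to 6.78 CPM in WT 1 to 3 and 7.45 to 12.9 CPM in WT 4 to 6.

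The other 4 genes have 1 RefSeq transcript each. GLN1 averaged 325 ± 57.8 CPM in WT 1 to 3 and 670 ± 116 CPM in WT 4 to 6 (SD, n = 3 each), at a log2 fold change of -1.41 ± 0.41 (SE) and an edgeR adjusted p of 0.0568. It passed with DESeq2, at an adjusted p of 0.00487, and without WT 1, at 0.00201 and a log2 value of -1.68. GSF1 averaged 67.1 ± 21.1 CPM in WT 1 to 3 and 15.6 ± 16.4 CPM in WT 4 to 6, at 1.82 ± 0.65 and an edgeR adjusted p of 0.11. It passed with DESeq2 (0.0389) and without WT 4, at 3.01 and 0.026. GSN1 averaged 239 ± 38.0 CPM and 193 ± 66.0 CPM in the same groups, overlapped, and gave -0.03 ± 0.38 with an adjusted p of 0.969. GLN3 gave 1.45 ± 1.1 with an adjusted p of 0.45.

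**Figure D4:**
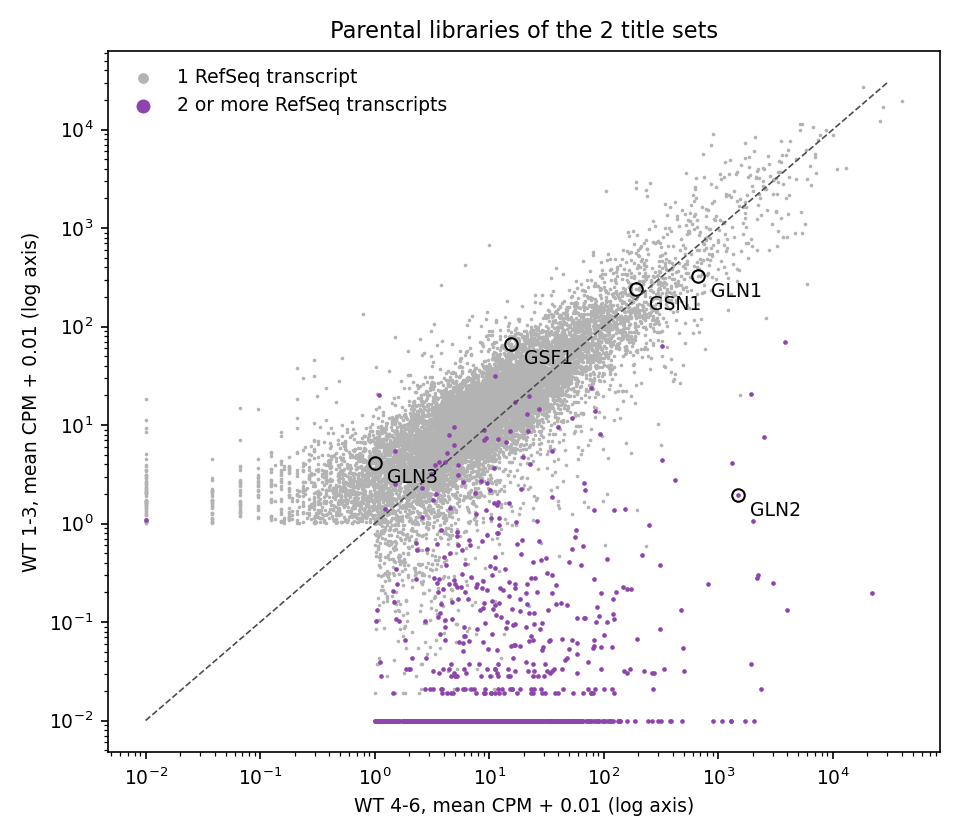
Mean CPM in WT 1 to 3 against mean CPM in WT 4 to 6 (both log axes, 0.01 CPM added) for identifiers with a mean of 1 CPM or more in either set, coloured by RefSeq transcript number, with the 5 genes circled and equality dashed. GLN2 lies among the identifiers with at least 2 transcripts far below the line, and the other 4 genes lie in the cloud of identifiers with 1 transcript.

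Within a parental set the order of levels was the same in each library for the genes with enough counts. In WT 1 to 3 it was GLN1, GSN1, GSF1, GLN3 and GLN2, and the ranges of the first neighbours, GLN1 at 263 to 377 CPM and GSN1 at 197 to 269 CPM, overlapped. In WT 4 to 6 it was GLN2, GLN1, GSN1, GSF1 and GLN3, and no neighbouring ranges overlapped. The values of A2 and D2 also ran in the order GLN2, GLN1, GSN1 and GSF1, on few counts. In A2 the Poisson intervals of GLN2 and GLN1 overlapped, as did those of GSN1 (4 counts) and GSF1 (3 counts). In D2 the intervals of GLN1 (6 counts), GSN1 (4 counts) and GSF1 (0 counts) overlapped.

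The identifiers with the most similar pattern over the 6 WT libraries were sought by Pearson's r of log2(CPM + 1) among 6831 with a mean of 10 CPM or more, as a description. For GLN1 they were Cre02.g095146 (r = 0.995) and Cre10.g458900 (r = 0.986), both with lower levels in WT 1 to 3. For GSN1 they were Cre16.g680600 (r = 0.995) and Cre03.g194850 (r = 0.981). For GLN2, Cre01.g051450 and Cre12.g519050 reached r above 0.999. Each has 2 RefSeq transcripts and is under 0.3 CPM in each of WT 1 to 3 and at 43.8 to 49.6 CPM in WT 4 to 6. For GLN2 r over these libraries restates the gap between the title sets, and 617 identifiers had r above 0.9. GSF1 and GLN3 had too few counts in WT 6 for this description.

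Genes that feed the cycle or draw on its products were counted beside it. Of 14 such genes 3 were tested in E10 against WT 1 to 3 and 0 passed. They were the glutamate dehydrogenase gene GDH2, the isocitrate dehydrogenase gene IDH3 and the ferredoxin gene FDX1, at log2 fold changes of 0.36 ± 0.42, 0.51 ± 0.81 and -0.68 ± 0.78 (SE), each with an edgeR adjusted p of 0.994. In the second title set all 14 were tested for A2 and D2, 0 passed as higher and 1 as lower, against the background of 10.9% of all identifiers, and the median log2 fold change was -1.47, beside -0.92 over all identifiers. The gene that fell was AGS1, known as a gene of arginine synthesis, a pathway that starts from glutamate. It had 2.1 CPM in A2 and 0 in D2, against 170, 180 and 182 CPM in WT 4 to 6, a log2 fold change of -6.54 ± 1.43 with an adjusted p of 0.0141. AGS1 rested on 1 count in the knockouts, its adjusted p was 0.097 without WT 4, 0.0969 without WT 5 and 0.0582 without WT 6, with a range of 0.000565 to 0.832 over all alternatives, and arginine was added to the WT medium alone.

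The next smallest p values of that list belonged to AST3, an aspartate aminotransferase gene, and to the ferredoxin gene FDX2. AST3 stood at 35.8 CPM in A2 and 27.7 CPM in D2, against 241, 281 and 238 CPM in WT 4 to 6, and gave -3.11 ± 1.01 (SE) with an edgeR adjusted p of 0.0544. FDX2, whose product is known as a ferredoxin of nitrogen metabolism in this alga, had 12.6 CPM in A2 and 0 in D2, against 67.5, 99.5 and 128 CPM in WT 4 to 6, at -3.32 ± 1.14 and 0.0626. Both missed the threshold in the main fit. Over 13 alternatives AST3 passed in 5 and FDX2 in 2, among them the fit with A2 as the lone knockout library. In E10 AST3 stood at 74.2, 319, 55.2 and 122 CPM, on 3, 2, 1 and 2 counts. In WT 1 to 3 it stood at 116, 101 and 98.3 CPM. FDX2 had 0 counts in E10, where 3 counts over the pooled total would be 37.0 CPM. Between the parental sets FDX2 averaged 5.64 ± 4.01 CPM in WT 1 to 3 and 98.2 ± 30.2 CPM in WT 4 to 6 (SD, n = 3 each), a log2 fold change of -4.47 ± 0.69 with an adjusted p of 0.00163. AST3 was also lower in WT 1 to 3, at -1.67 ± 0.38 and 0.0188, and lost the call without any 1 of WT 2, 3, 5 and 6 (0.0653 to 0.107). These were the 2 of 14 genes that passed in that comparison, where 11.1% of all identifiers (1451 of 13040) passed.

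GLN4 (Cre03.g207250), named as a further glutamine synthetase and not among the 5 genes, went the other way in single libraries. It had 24.7, 159, 166 and 2205 CPM in E10, on 1, 1, 3 and 36 counts, against 37.3, 120 and 108 CPM in WT 1 to 3. In the second title set it had 484 CPM in A2 on 230 counts and 27.7 CPM in D2 on 1 count, against 69.9, 69.3 and 62.5 CPM in WT 4 to 6. The high values thus came from PDSKO 4 and A2 and not from the other knockout libraries. For A2 and D2 edgeR gave a log2 fold change of 2.08 ± 1.00 (SE) at an adjusted p of 0.149. It was 2.81 without D2 and -2.32 without A2, each with 1 knockout library left. Within both title sets together it was 2.26 ± 0.79 with an adjusted p of 0.145, and DESeq2 called it at 2.96 and 0.00994.

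**Figure D5:**
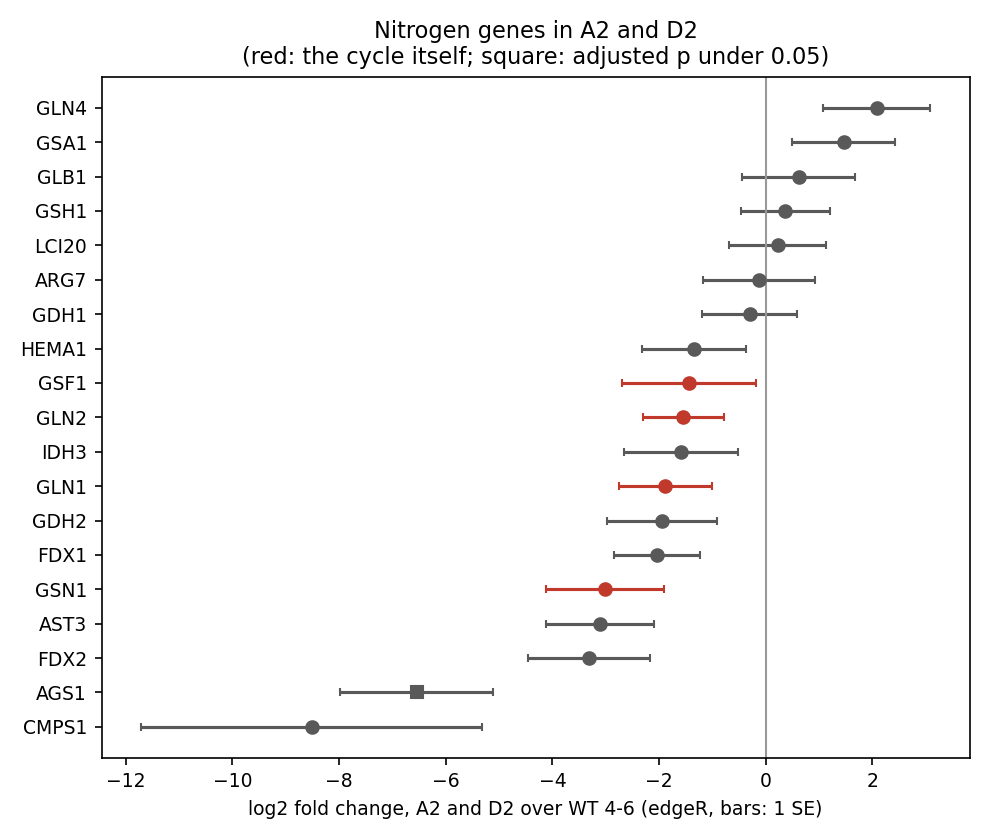
Log2 fold changes, A2 and D2 over WT 4 to 6, with bars of 1 SE from edgeR, for the tested genes of the cycle (red) and of the 2 lists around it (grey), in order of value. AGS1 (square, -6.54) is the single gene past an adjusted p of 0.05, the 4 genes of the cycle lie from -3.01 to -1.43, and GLN4 is highest at 2.08.

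Genes of nitrogen uptake, nitrate reduction and nitrogen regulation had few counts. Of 11 on the list, 1 had any count in E10, 7 in WT 1 to 3, 2 in A2 and D2 and 5 in WT 4 to 6. The nitrate reductase gene NIT1, the nitrate transporter gene NRT2.1 and the nitrite transporter gene NAR1.1 had 0 counts in all 12 libraries. In WT 2, the deepest, 3 counts would be 0.0833 CPM, and over the pooled E10 libraries 37.0 CPM, so low levels in E10 could not be seen. The nitrite reductase gene NII1 had 0 counts in all knockout libraries and reached 13.8 CPM in WT 1. GLB1, the PII nitrogen sensor, averaged 29.1 CPM in E10 on 2 counts and 14.8 ± 11.2 CPM in WT 1 to 3 (SD, n = 3). The fits tested 0 of these 11 genes in E10, 1 in A2 and D2 and 3 in the parental comparison, and 0 passed in each. The one tested in A2 and D2 was GLB1, at 0.62 ± 1.07 (SE) with an edgeR adjusted p of 0.715.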

How the data were processed

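CEL-Seq libraries, a method that barcodes samples at reverse transcription and reads the 3′ end of each transcript, were made from 6 PDSKO and 6 WT samples, per the labels' protocols. Read 2 was aligned by the authors with BWA MEM to transcriptome 281_v5.6, multi-mapping reads were dropped, and MapAndGo did the counting, per the labels' protocols. EdgeR is named in the submitters' processing notes with no version. No source used here says how molecular identifiers were handled. The authors deposited raw counts for 17744 identifiers, and each of the 12 columns was matched to its sample by title. If reads shared by transcripts of 1 gene count as several places, such genes lose reads. Whether this occurred in either title set was not tested.

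CPM use each library's total, with exact Poisson 95% intervals, Wilson intervals for shares and a floor of 3 counts. These cover counting error only. Counts were tested with edgeR 4.0.16 (filterByExpr, TMM, quasi-likelihood test, two-sided, Benjamini-Hochberg over all identifiers tested, 0.05) in R 4.3.3. A run on simulated counts used the same spread for all identifiers and larger changes than the tested genes had between genotypes. It does not show what the test finds for smaller changes. SE is the log2 fold change over the root of F. Alternatives were DESeq2 1.42.0, RLE or no factors, no filter, other fits, a replicate block, Cre07.g323800 left out, and each library left out. The filter was rerun in each alternative that used it, so leaving out a library can also change which identifiers are tested. RefSeq transcripts per identifier come from the gene table of assembly v5.5, which matched 17742 identifiers and is another build than the authors used. Its neighbours are used and its coordinates are not. A chi-square of each pair of replicates, over its degrees of freedom, was at least 3.95, so no pair differed by counting error alone. Repeat libraries of 1 culture can also differ by more than counting error, so this does not show separate cultures. Python 3.11.15 drew the plots.

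The genes and lists were chosen with earlier results of these data known, and symbols were paired with identifiers from general knowledge. Named are the 5 genes, PDS1, Cre07.g323800, GLN4, list genes that passed, the 3 list genes with the smallest p in each genotype comparison within a title set, and the 2 identifiers most similar to each of GLN1, GLN2 and GSN1, which had 10 or more counts in each WT library. GLB1, NII1, NIT1, NRT2.1, NAR1.1 and Cre12.g530700 were named after their values were seen.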

Additional observations from a re-analysis of the deposited data

Results flagged for a closer look

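In a group of 4 libraries a value was singled out when its gap to the nearest other value, over the range of the group, passed Dixon's critical value of 0.829. Only E10 has 4 libraries, and 9 genes were tested there. The critical value is meant for normally distributed values, so the share that chance singles out among counts this low is not known. A gene with 1 count in 1 of the 4 libraries and 0 in the others always passes. GLN2 stood at 61.2 CPM in PDSKO 4 and at 0 in the other E10 libraries, on 1 count. GSF1 stood at 319 CPM in PDSKO 2, on 2 counts. GLN4 stood at 2205 CPM in PDSKO 4, on 36 counts, against 24.7 to 166 CPM in PDSKO 1 to 3.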

How the results depend on the processing

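The knockout depth limits what can be seen: 1 count is 24.7 to 159 CPM in E10 and 27.7 CPM in D2. GLN2 stayed past the threshold between the parental sets in each alternative that included it (-10.29 to -9.57), and FDX2 did too (-5.44 to -4.05). The cause of the changes below was not tested. The number of the 5 genes past the threshold in A2 and D2 became 1 without the filter and 0 to 2 with 1 library left out. Over both title sets it became 1 without the filter. Between the parental sets it became 3 with DESeq2, 0 with identifiers of 1 RefSeq transcript only (chosen after seeing the data, and without GLN2), and 1 to 2 with 1 library left out. It stayed at 0 in E10 and for the difference between title sets in each alternative.

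Signs turned as follows. In E10, without the filter and in the 4-group fit, GSN1 became -0.77 and -0.83, GDH2 -1.11 and -1.10, and IDH3 -0.67 and -0.83. With 1 library left out GSN1 ranged from -0.98 to 0.92, GDH2 from -1.04 to -0.88, IDH3 from -1.85 to 1.17 and FDX1 from -2.46 to 0.28. Over both title sets GLN2 became 0.61 with RLE factors, 0.16 with totals alone and 0.94 with DESeq2, and GSF1 0.36 with RLE factors and 0.37 with DESeq2. With 1 library left out they ranged from -1.05 to 0.22 and from -1.01 to 0.026. For the difference between title sets GLN4 became -0.81 with totals alone. With 1 library left out GLN1 ranged from -1.56 to 0.029, GLN2 from -3.72 to 5.69, GSF1 from -9.72 to 0.31 and GLN4 from -3.84 to 3.18. Between the parental sets GSN1 and GLN4 became 0.31 and 0.40 with totals alone, and ranged from -0.27 to 0.23 and from -0.22 to 0.24 with 1 library left out. In A2 and D2, GLN4 ranged from -2.32 to 2.81.

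Library numbers recur in both genotypes and were not taken as pairs in the main fits. The deviations of same-numbered libraries correlated at 0.351, 0.0527 and 0.165 in the first title set and at 0.033 and -0.074 in the second. PDSKO 1, 2 and 3 each correlated best with the WT library of the same number, so these values do not settle whether the first set was paired. In the second set the deviations of A2 and D2 from their mean mirror each other, so those values say little. With the number as a replicate block 0 of the 5 genes passed in each genotype comparison, AGS1 in A2 and D2 was at an adjusted p of 0.832, GSF1 became 0.035 over both title sets and GLN2 4.32 for the difference between title sets. Number 4 joins PDSKO 4 of the first title set with WT 4 of the second. In the fits of all libraries that block therefore compared genotypes across title sets, where GLN2 is not counted alike. The block moved the calls over all identifiers to 18 in A2 and D2, to 69 over both title sets and to 6 for the difference between title sets.

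In E10 (0 calls over all identifiers) DESeq2 made 1, the 4-group fit 3, and leaving out 1 library 0 to 1. Calls over all identifiers in A2 and D2 (874) became 512 with totals alone, 1470 without the filter and 13 to 2486 with 1 library left out (13 without WT 4, 71 without WT 5, 127 without WT 6, 2486 without D2). Over both title sets (0) they became 44 with RLE factors, 41 with totals alone, 400 with DESeq2, 2030 without the filter, 43 without Cre07.g323800, 6 with E10 summed, 36 with identifiers of 1 transcript and 0 to 997 with 1 library left out (997 without PDSKO 1, 338 without PDSKO 3). For the difference between title sets (1) they became 662 with DESeq2, 42 without the filter and 0 to 243 with 1 library left out (243 without WT 1, 105 without A2). Between the parental sets (1451) they became 2235 with DESeq2, 271 with identifiers of 1 transcript and 1119 to 3288 with 1 library left out (3288 without WT 1).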
